A study of Mus musculus with 11 samples.

Results

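A set of noncoding RNAs (8 of the 54838 genes counted) are described here in mouse embryonic stem cells 36 h after transfection with siRNA. They are Gm26917 and Gm42418, neighbouring loci on chromosome 17 of which Gm42418 holds a stretch of ribosomal RNA sequence, the nuclear long noncoding RNAs Malat1 and Neat1, and 4 short structural RNAs, namely Rn7sk, Terc, Rmrp and Rpph1. The set was chosen by the kind of RNA and by the share of counts measured in these same libraries, so the levels below are a description and carry no test. The siRNA contrasts are not part of that rule and were tested, although earlier results of these data were known when the set was chosen. Rmrp was at 0 in every library and Rpph1 never exceeded 5 reads; both overlap other annotated genes on their strand, and their abundance was not measured by these counts.

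The cells were E14, a feeder-independent mouse embryonic stem cell line, grown on gelatin with LIF. All 11 libraries come from cells that received an siRNA for 36 h, with 3 libraries of a control scramble siRNA, 4 of CMTR1 siRNA 1 and 4 of CMTR1 siRNA 2. Each library holds total RNA after ribosomal RNA depletion, prepared with a kit that keeps strand, and between 6738478 and 8382318 reads were counted in genes. The labels number the libraries of a group but do not say whether they came from separate cultures, and the study's methods speak of biological replicates in a number that matches the control group only, so p-values measure the spread between these libraries, which may in part be technical. In bulk RNA, fewer cells of a type and less RNA per cell cannot be told apart.

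CMTR1 is the enzyme that methylates the ribose of the first transcribed nucleotide next to the cap of RNA polymerase II transcripts. Cmtr1 mRNA lay between 17.9 and 21.7 counts scaled to a library of 1000000 (CPM) in control, between 16.2 and 21.3 CPM with siRNA 1 and between 15.6 and 19.5 CPM with siRNA 2, and the groups overlapped. Its change was not called for siRNA 1 (log2 fold change −0.09, SE 0.11, FDR 0.743) or siRNA 2 (log2 fold change −0.25, SE 0.11, FDR 0.144, both by edgeR). Knockdown was therefore not called at the level of the mRNA, and the groups are named below by the siRNA on their labels. The paper describes CMTR1 as repressed by these siRNAs and lists them for western blot, and protein is not measured by these libraries. All 8 of 8 embryonic stem cell markers examined were detected, with a summed level of 1771 to 1868 CPM in control, 1558 to 1686 CPM with siRNA 1 and 1624 to 1687 CPM with siRNA 2. The 6 fibroblast or feeder markers, 5 of which passed the filter on low counts, summed to 23.3 to 27.8 CPM in control, 24.7 to 28.5 CPM with siRNA 1 and 34.1 to 38.9 CPM with siRNA 2. The part of these marker differences in the results below was not tested.

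In the nucleus RNA polymerase I makes the ribosomal RNA precursor, RNA polymerase II makes Malat1, Neat1 and Terc, and RNA polymerase III makes Rn7sk, Rmrp and Rpph1. Which polymerase made the RNA counted at Gm26917 and Gm42418 was not tested. Malat1 concentrates in nuclear speckles and Neat1 is the scaffold of paraspeckles. The 7SK RNA made from Rn7sk holds the elongation factor P-TEFb inactive through HEXIM proteins, Terc carries the template of telomerase, and Rmrp and Rpph1 are the RNA subunits of RNase MRP and RNase P, which process ribosomal and transfer RNA precursors. Most of them act as scaffolds or catalytic cores of ribonucleoprotein particles.

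The stretches below are shown because they identify what was counted, and because in Rmrp and Rpph1 they show where a read could be assigned to a single gene. Sequences are those of GENCODE M21 transcripts on GRCm38, written 5′ to 3′ as DNA. In Gm42418-201 (chr17:39846958-39847047, plus strand) the capitals mark GCCGCGGTA, a stretch conserved in small subunit ribosomal RNA that is found in the transcripts of 0.11% of all 55450 annotated genes. In Rn7sk-201 (chr9:78175514-78175633, minus strand) the capitals mark GATC, the letters of the motif that HEXIM proteins bind in 7SK, which occurs 3 times in the whole RNA, at positions 13, 42 and 64, and also in transcripts of 84.1% of all genes. In Terc-201 (chr3:96414785-96414859, minus strand) the capitals mark CTAACCC, which copies into the telomere repeat and starts at position 29; transcripts of 7.69% of all genes contain it. Each motif was searched on the transcript strand only. In Rmrp-202 (chr4:43492783-43493063, minus strand) the capitals mark the 10 bases that belong to only 1 of the 2 annotated Rmrp genes. In Rpph1-201 (chr14:50807449-50807748, minus strand, positions 20 to 319) the capitals mark the 67 bases of this stretch that lie outside the exons of Ccnb1ip1.
Gm42418-201: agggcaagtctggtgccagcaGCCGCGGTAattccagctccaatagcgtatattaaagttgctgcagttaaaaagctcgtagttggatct
Rn7sk-201: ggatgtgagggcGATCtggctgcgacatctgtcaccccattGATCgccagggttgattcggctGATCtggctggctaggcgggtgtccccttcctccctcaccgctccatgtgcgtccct
Terc-201: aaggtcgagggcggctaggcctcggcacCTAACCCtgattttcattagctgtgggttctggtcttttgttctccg
Rmrp-202: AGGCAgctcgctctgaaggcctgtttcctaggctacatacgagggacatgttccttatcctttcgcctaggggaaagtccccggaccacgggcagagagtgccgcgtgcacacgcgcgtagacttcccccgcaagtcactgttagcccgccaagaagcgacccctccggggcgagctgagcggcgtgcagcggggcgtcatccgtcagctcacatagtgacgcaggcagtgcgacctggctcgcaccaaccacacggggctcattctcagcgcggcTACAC
Rpph1-201: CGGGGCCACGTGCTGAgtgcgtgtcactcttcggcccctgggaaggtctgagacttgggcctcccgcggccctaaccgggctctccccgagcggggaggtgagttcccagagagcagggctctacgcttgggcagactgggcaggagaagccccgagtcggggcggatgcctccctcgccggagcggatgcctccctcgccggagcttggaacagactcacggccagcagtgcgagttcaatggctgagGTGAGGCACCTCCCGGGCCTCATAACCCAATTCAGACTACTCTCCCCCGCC

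Together the 8 RNAs took between 6.39% and 8.10% of all gene counts in a library. The mean was 7.37% ± 0.23 in control (SD, n = 3), 7.38% ± 0.50 with siRNA 1 (SD, n = 4) and 6.87% ± 0.43 with siRNA 2 (SD, n = 4). Gm26917 and Gm42418 alone accounted for 5.92% to 7.60%, whereas the other 6 RNAs together held 0.473% to 0.540%. By mean CPM, Gm26917 was the highest of all 54838 genes, Gm42418 ranked 2, Malat1 5, Rn7sk 99, Neat1 931 and Terc 3068. Per kilobase of exon the order changed, because Rn7sk and Terc are short and Neat1 is long. On that scale Gm26917 averaged 16856 ± 1149 CPM per kb over all libraries (SD, n = 11), Gm42418 5913 ± 576, Rn7sk 2238 ± 97.5, Malat1 567 ± 28.8, Terc 184 ± 13.7 and Neat1 9.88 ± 1.29. No library's value for any of these 6 crossed that of its neighbour in the order. The Neat1 values per base divide by all 20771 exon bases of its 4 annotated transcripts. Which of these transcripts its reads came from was not tested, and a shorter length would give a higher value. Reads had been cleared of PCR duplicates before counting, and at 129 reads per exon base for Gm26917, 45.1 for Gm42418, 17.1 for Rn7sk and 0.0757 for Neat1, the RNAs differ in how often separate fragments share a position. The part of that step in these levels was not tested. Nor was the part of ribosomal RNA depletion, or of reads that aligned to several places and were not counted.

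**Figure D1:**
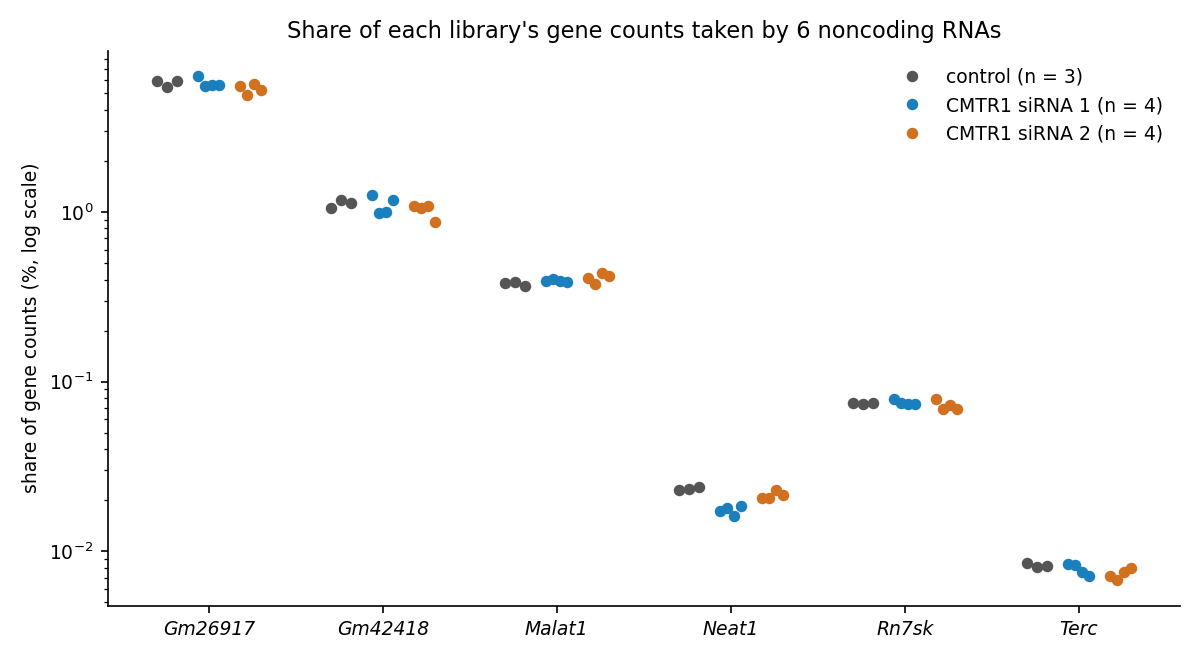
Share of each library's gene counts (%, log axis) taken by the 6 RNAs that passed the filter on low counts; each point is a library, coloured by siRNA group (3 control, 4 and 4 CMTR1 siRNA). The levels span from above 6% for Gm26917 to under 0.01% for Terc, and Neat1 shows the clearest separation between groups.

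Across the 16073 genes tested, edgeR called 4.67% with siRNA 1 against control, 9.72% with siRNA 2 against control and 7.44% between the siRNAs at an FDR of 0.05. Of the 8 RNAs, 6 passed the filter of more than 1 CPM in at least 4 libraries; Rmrp and Rpph1 did not. Of those 6, 1 was called with siRNA 1, 0 with siRNA 2 and 1 between the siRNAs, and in each case the RNA was Neat1. The numbers with an unadjusted p under 0.05 were 1, 5 and 2, and many other genes were under that threshold too. Of the 5 with siRNA 2, Gm42418 came last by p and ranked 3360 among all 16073 genes. At least 3360 genes tested were therefore under the threshold in that comparison. Of the 2 between the siRNAs, Gm26917 came last and ranked 1881. For siRNA 2 against control DESeq2 called 1 member in place of 0. The median log2 fold change of the 6 was −0.01 with siRNA 1, −0.12 with siRNA 2 and −0.08 between the siRNAs, beside 0.02, 0.03 and 0.0018 over all genes tested. Libraries of the groups compared did not overlap for 1 of the 6 in each comparison, when 15.5%, 19.4% and 11.8% of all genes tested were separate in this sense. The contrasts with control share the control libraries.

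**Figure D2:**
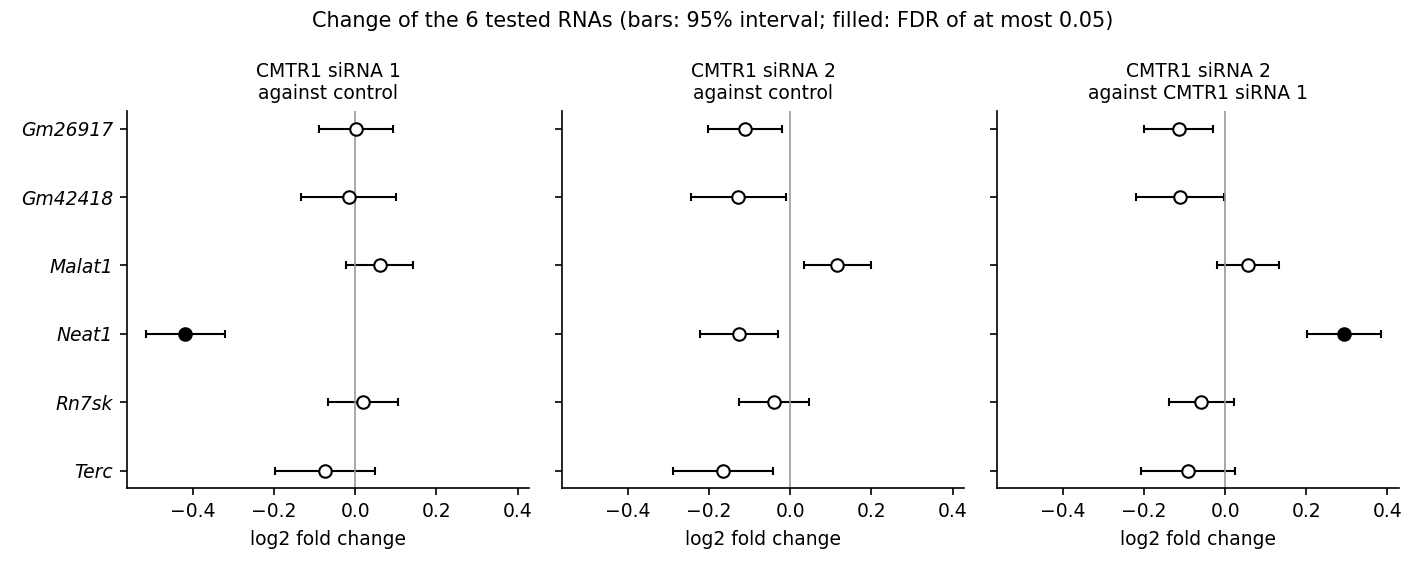
Log2 fold change of the 6 tested RNAs in the 3 comparisons, with bars of the 95% interval from edgeR; filled points have an FDR of at most 0.05. Neat1 is the only filled point, at −0.42 with siRNA 1 against control and 0.29 for siRNA 2 against siRNA 1.

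Neat1 (chr19:5824708-5845478, minus strand, 20771 bases of exon) was the member that changed. Its count pools 4 annotated transcripts, whose separate levels were not tested. In the control libraries it stood at 229, 232 and 241 CPM. With siRNA 1 it stood at 173, 179, 162 and 185 CPM. With siRNA 2 the values were 206, 206, 229 and 215 CPM. Every siRNA 1 library was thus below every library of the other groups, while the highest siRNA 2 library overlapped the lowest control. With siRNA 1 Neat1 fell by 25.2% (log2 fold change −0.42, SE 0.050, FDR 3.17e-07 by edgeR), which ranked 4 by p among all 16073 genes. An exact two-sided permutation test of its share of counts gave p = 0.057, the smallest that 3 against 4 libraries allow. Between the siRNAs Neat1 was 22.5% higher with siRNA 2 (log2 fold change 0.29, SE 0.046, FDR 2.95e-05 by edgeR; exact permutation p = 0.029, the smallest that 4 against 4 allow). Against control, siRNA 2 gave a log2 fold change of −0.13 (SE 0.049, FDR 0.0990 by edgeR). That value passed the threshold with TMM factors (−0.15, FDR 0.0420), with DESeq2 (−0.15, FDR 0.0451) and when siRNA 2 replicate 3 was left out (−0.16, FDR 0.0311). Those were 2 of 8 other settings and 1 of 11 fits with 1 library left out. The highest FDR was 0.148 and 0.310 in these 2 sets of fits.

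Malat1 (chr19:5795690-5802672, minus strand, 6983 bases of exon) is the neighbour of Neat1 on the same strand, with 22035 bases between them. Its level was 3804, 3866 and 3681 CPM in control. It was 3944, 4049, 3939 and 3849 CPM with siRNA 1. It was 4088, 3763, 4368 and 4184 CPM with siRNA 2. The groups overlapped, and siRNA 2 replicate 2 was lower than 2 of the control libraries. Its log2 fold change reached 0.06 with siRNA 1 (SE 0.042, FDR 0.507 by edgeR) and 0.12 with siRNA 2 (SE 0.042, FDR 0.0723). Without siRNA 2 replicate 2 the latter rose to 0.16 (FDR 0.00988). That was 1 of 11 fits with 1 library left out, and 0 of 8 other settings passed the threshold. The highest FDR was 0.285 and 0.231 in these 2 sets of fits. The number of Malat1 reads per Neat1 read, which does not depend on how libraries are scaled, was 15.3 to 16.7 in control, 20.8 to 24.3 with siRNA 1 and 18.2 to 19.8 with siRNA 2, with no overlap between any of the groups. This ratio was examined after the values of Neat1 were known, and its exact permutation p was the smallest possible in all 3 comparisons (0.057, 0.057 and 0.029). For siRNA 1 against control and between the siRNAs, Neat1 alone had the same p, so there the ratio is no further support. For siRNA 2 against control it joins a lower Neat1 and a higher Malat1, neither of them called. Because it was picked with values known, it is no support there either. How often ratios of other gene pairs separate the groups was not tested.

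**Figure D3:**
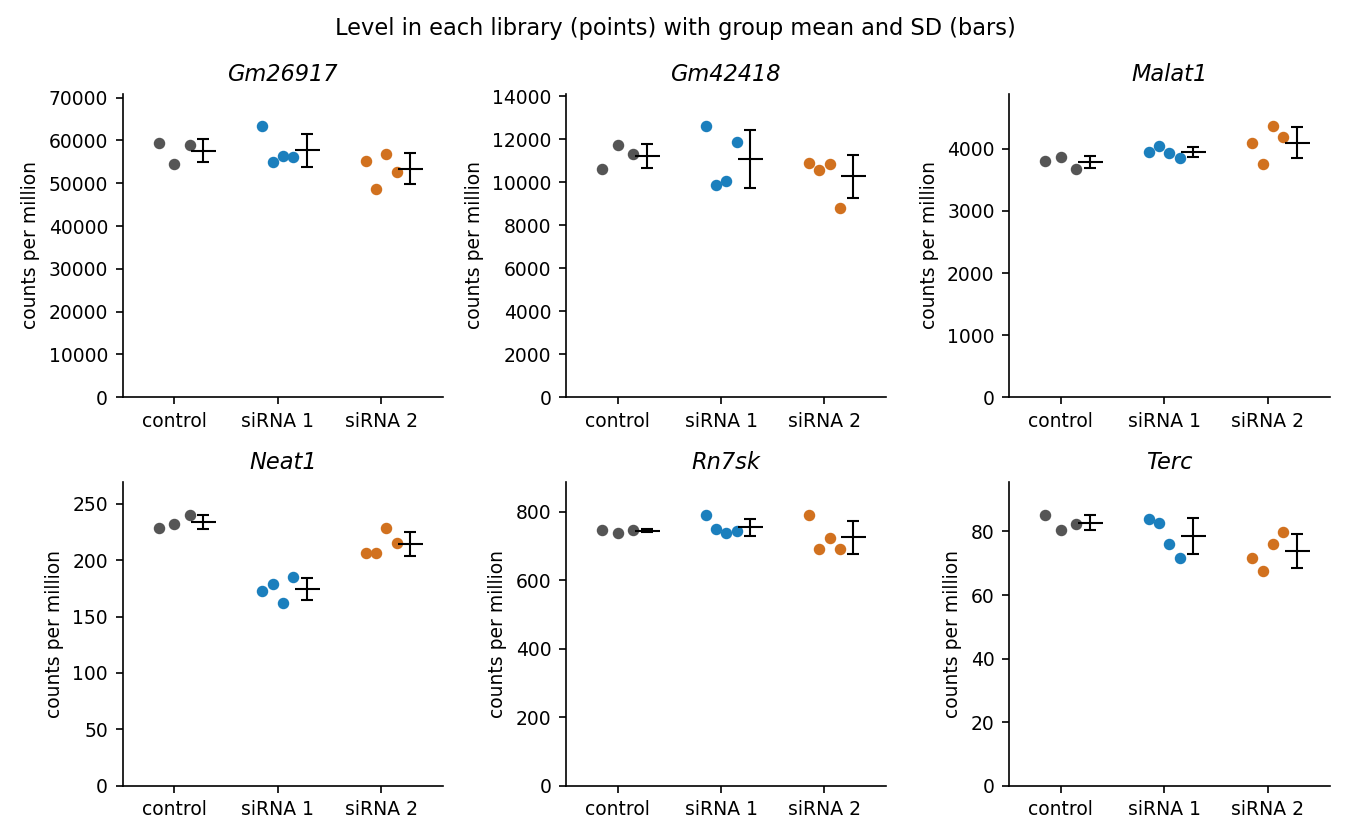
Level of the 6 RNAs in each library in CPM, with axes from 0; points are libraries and bars show the group mean ± SD (n = 3, 4 and 4). In the Neat1 panel all 4 siRNA 1 libraries, at 162 to 185 CPM, lie below the 3 control libraries at 229 to 241 CPM, whereas in the other 5 panels the siRNA 1 and control libraries overlap.

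Gm26917 (chr17:39843013-39846341, plus strand, 3329 bases of exon) and Gm42418 (chr17:39846958-39848788, plus strand, 1831 bases) lie 616 bases apart and are annotated as long intergenic noncoding RNAs. Gm42418 holds the small subunit stretch shown above, and Gm26917 lies before it on the same strand. Whether Gm26917 holds sequence of the ribosomal RNA precursor was not tested. The libraries had been depleted of ribosomal RNA, and the part of that depletion in the counts of both loci and their differences was not tested. Gm26917 took 5.95%, 5.44% and 5.90% of counts in control. With siRNA 1 it took 6.34%, 5.50%, 5.63% and 5.62%. With siRNA 2 it took 5.53%, 4.86%, 5.69% and 5.25%. The groups overlapped, with the highest value in siRNA 1 replicate 1 and the lowest in siRNA 2 replicate 2. Its log2 fold change was 0.0019 with siRNA 1 (SE 0.047, FDR 0.991 by edgeR) and −0.11 with siRNA 2 (SE 0.047, FDR 0.128). Between the siRNAs it was −0.11 (SE 0.043, FDR 0.102 by edgeR). Without siRNA 2 replicate 3 the siRNA 2 values became −0.14 against control (FDR 0.0288) and −0.15 against siRNA 1 (FDR 0.0198). In each comparison that was 1 of 11 fits with 1 library left out to pass. The highest FDR of these fits was 0.371 against control and 0.450 against siRNA 1.

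Gm42418 took 1.06%, 1.17% and 1.13% of counts in control. Its shares were 1.26%, 0.985%, 1.01% and 1.18% with siRNA 1. They were 1.09%, 1.06%, 1.08% and 0.878% with siRNA 2. The siRNA 1 libraries included both the highest share of the series and 2 shares below all controls, and the groups overlapped. Its log2 fold change stood at −0.02 with siRNA 1 (SE 0.060, FDR 0.931 by edgeR), −0.13 with siRNA 2 (SE 0.060, FDR 0.181) and −0.11 between the siRNAs (SE 0.055, FDR 0.238). When genes with at least 1 read in any library were all tested, both loci were called in the comparisons of siRNA 2. For Gm26917 and Gm42418 in that order, the edgeR FDR was 0.0255 and 0.0150 against control, 0.0124 and 0.0321 against siRNA 1. Their log2 fold changes were the same as with the filter (−0.11 and −0.13 against control, −0.11 and −0.11 against siRNA 1). An exact two-sided permutation test of the share against control gave p = 0.171 for each locus. Against siRNA 1 the exact two-sided permutation test of the share gave p = 0.200 for Gm26917 and p = 0.343 for Gm42418. Gm26917 had 4.61 to 5.98 reads for each Gm42418 read, and group means of this ratio were 5.15 ± 0.48, 5.24 ± 0.42 and 5.23 ± 0.57 (SD) in control, siRNA 1 and siRNA 2.

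The ribosomal RNA entry CT010467.1 covers 1822 of the 1831 bases of Gm42418 on the opposite strand. It held 113 to 168 reads per library, which is 1.40 to 2.13 reads per 1000 reads of Gm42418, so the deposited counts separate the strands. AY036118, a further entry on the opposite strand, was at 0 in every library.

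Rn7sk (chr9:78175303-78175633, minus strand, 331 bases) was among the steadiest members. Control libraries held 747, 739 and 747 CPM. Libraries with siRNA 1 held 791, 749, 737 and 742 CPM. Those with siRNA 2 held 791, 690, 724 and 692 CPM. The highest library of each siRNA group stood above all controls, and 3 of the 4 siRNA 2 libraries stood below them. The log2 fold change was 0.02 with siRNA 1 (95% interval −0.07 to 0.11, FDR 0.883 by edgeR) and −0.04 with siRNA 2 (95% interval −0.13 to 0.05, FDR 0.642). Of its 75-base words, the length of a read, 65.0% also occur in 4 other annotated genes, and the part of these shared words in its count was not tested.

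Terc (chr3:96414437-96414859, minus strand, 423 bases) had 505 to 672 reads per library and shares none of its 75-base words with another gene. It stood at 85.3, 80.5 and 82.4 CPM in control. It stood at 84.0, 82.6, 76.1 and 71.8 CPM with siRNA 1. It stood at 71.7, 67.4, 76.0 and 79.9 CPM with siRNA 2. All siRNA 2 libraries were below all controls, whereas siRNA 1 overlapped both. The log2 fold change with siRNA 2 was −0.17 (SE 0.063, FDR 0.0878 by edgeR; exact permutation p of the share = 0.057, the smallest possible). It passed the threshold with TMM factors (−0.19, FDR 0.0436) and without siRNA 2 replicate 4 (−0.21, FDR 0.0375). Those were 1 of 8 other settings and 1 of 11 fits with 1 library left out. The highest FDR was 0.118 and 0.260 in these 2 sets of fits. With siRNA 1 it was −0.07 (SE 0.063, FDR 0.603 by edgeR).

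Rmrp is entered as 2 genes on the same strand of chromosome 4, a ribozyme of 271 bases and a long intergenic RNA of 281 bases. The shorter lies wholly inside the longer, and both were at 0 in all 11 libraries. A count of 0 allows up to 0.358 to 0.445 CPM, depending on the library, for counting error only. Only the 10 bases in capitals above are free of the other entry. Rpph1 (chr14:50807449-50807767, minus strand, 319 bases) shares 233 bases, or 73.0%, with exons of Ccnb1ip1 on the same strand. It held 2, 3 and 2 reads in control, 5, 1, 1 and 3 reads with siRNA 1 and 0, 3, 0 and 1 reads with siRNA 2, which overlapped and are too few for a comparison. Each of the files that has summary lines lists 137308 to 164565 reads as ambiguous between genes. These lines have the layout of HTSeq-count, whereas the submitters' processing notes name featureCounts, so how reads over overlapping genes were treated is known only from that line. How many of those came from Rmrp or Rpph1 was not tested, so the levels of RNase MRP and RNase P RNA are not measured by these counts.

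**Figure D4:**
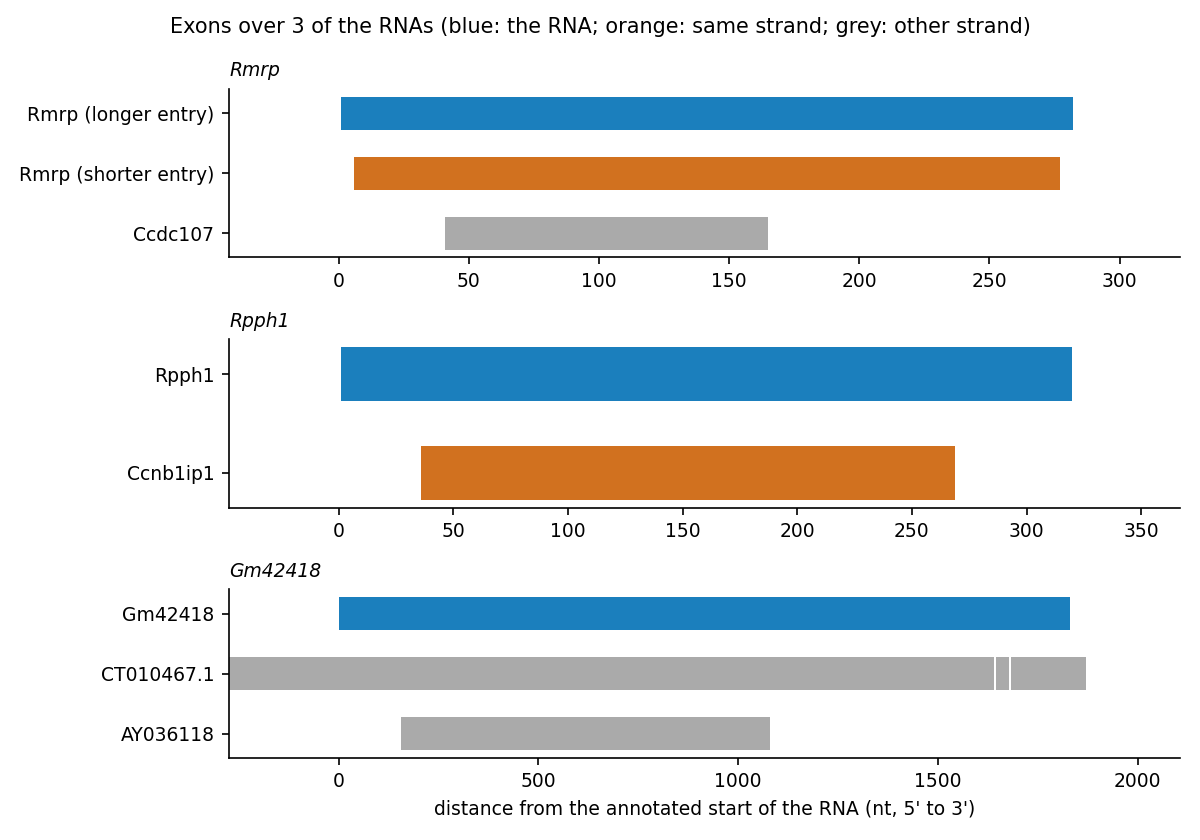
Annotated exons over Rmrp, Rpph1 and Gm42418, drawn to scale by distance from the start of each RNA in bases; blue is the RNA, orange another gene on the same strand and grey a gene on the opposite strand. Both Rmrp entries coincide over 271 bases, Ccnb1ip1 covers 233 of 319 bases of Rpph1, and Gm42418 is covered only from the opposite strand.

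Ccnb1ip1, which encodes a meiotic crossover factor and is singled out here after its values were seen, did change. It averaged 52.4 ± 2.16 CPM in control (SD, n = 3), 35.6 ± 2.01 CPM with siRNA 1 (SD, n = 4) and 43.5 ± 3.40 CPM with siRNA 2 (SD, n = 4), and its libraries did not overlap between control and either siRNA. Its log2 fold change was −0.55 with siRNA 1 (SE 0.072, FDR 1.21e-06 by edgeR) and −0.27 with siRNA 2 (SE 0.069, FDR 0.00945). Among other short RNAs, also named after their values were seen, the RNase P-like gene Rprl3 held 288 to 373 reads per library. The Y RNA genes Rny1 and Rny3 held 70 to 127 and 83 to 134 reads, and the 7SL genes Rn7s1 and Rn7s2 held 0 to 4 and 2 to 7. Files with summary lines list 787556 to 974693 reads that aligned to several places and were not counted in genes. How many of those came from the short RNAs was not tested, so these counts do not give their abundance.

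The proteins that make or bind the 8 RNAs were examined in 7 lists of 86 genes, all of which passed the filter. With siRNA 1 against control, 2 of the 86 fell and 1 rose; with siRNA 2, 3 fell and 2 rose. Between the siRNAs 5 were called. The calls of the 3 comparisons, in that order, were 3.49%, 5.81% and 5.81% of the 86. Over all genes tested the share called was 4.67%, 9.72% and 7.44%. The median log2 fold change of the 86 was 0.0057 with siRNA 1 and 0.01 with siRNA 2, close to the 0.02 and 0.03 of all genes. Against control edgeR called 0 of the 7 genes of the 7SK particle, 0 of the 11 RNase P and RNase MRP proteins, 0 of the 10 telomerase genes and 0 of the 11 paraspeckle genes, which include Nono and Sfpq, core partners of Neat1 named here for that role. Those 4 lists held 1, 2, 0 and 2 genes with an unadjusted p under 0.05 in the siRNA 1 comparison, and 2, 2, 0 and 0 in that of siRNA 2. The lowest and highest paraspeckle genes with siRNA 1, named after their values were seen, were Nudt21 at a log2 fold change of −0.12 and Pspc1 at 0.13. Between the siRNAs 1 gene of the 7SK particle was called, Hexim1, which inhibits P-TEFb when bound to 7SK, at 0.21; it too was named after its values were seen.

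In the list of RNA polymerase I and its factors, 2 of 15 fell with each siRNA, when 4.67% and 9.72% of all genes tested were called. Ubtf, which binds ribosomal DNA and keeps it active, fell from 311 ± 8.59 CPM in control to 282 ± 7.10 with siRNA 1 (log2 fold change −0.14, SE 0.044, FDR 0.0455 by edgeR) and 266 ± 5.55 with siRNA 2 (−0.23, SE 0.044, FDR 0.000339). Polr1b, the second-largest subunit of the enzyme, fell with siRNA 1 (−0.15, SE 0.045, FDR 0.0370 by edgeR) and was at 0.02 with siRNA 2 (FDR 0.887). Taf1d, a subunit of the promoter selectivity factor, fell with siRNA 2 (−0.23, SE 0.055, FDR 0.00448 by edgeR) and was at −0.06 with siRNA 1 (FDR 0.609). In the list of RNA polymerase III, its promoter factors and La, 1 of 23 was called with siRNA 1 and 2 of 23 with siRNA 2. Polr3g, the form of its subunit that is typical of stem cells, rose to a log2 fold change of 0.20 with each siRNA (FDR 0.0485 and 0.0362 by edgeR). Both calls of Polr3g were lost with TMM factors (FDR 0.0854 and 0.0739) and with DESeq2 (FDR 0.153 and 0.142). Pou2f1, which binds the distal element of 7SK and small nuclear RNA promoters, fell with siRNA 2 (−0.13, SE 0.042, FDR 0.0445 by edgeR). With a replicate block, the siRNA 1 calls of Ubtf and Polr1b and the siRNA 2 call of Pou2f1 were also lost. Replicate numbers did not pair the libraries, as described below. Of 9 nuclear speckle genes, edgeR called 0 with siRNA 1, where 1 gene had an unadjusted p under 0.05, and 1 with siRNA 2, the scaffold gene Srrm2 (0.14, SE 0.040, FDR 0.0214), which missed the threshold with TMM factors (0.11, FDR 0.0776). Srrm2 was called with DESeq2 (0.11, FDR 0.0395) and with the replicate block (0.15, FDR 0.0245).

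For comparison, the other genes of each annotated noncoding class were summed without the 8 RNAs. The 1507 other small nucleolar RNA (snoRNA) genes took 0.107% ± 0.010 of counts in control (SD, n = 3), 0.105% ± 0.0077 with siRNA 1 (SD, n = 4) and 0.0862% ± 0.0079 with siRNA 2 (SD, n = 4). For siRNA 2 all libraries were below all of the other groups (exact permutation p = 0.057 against control and 0.029 against siRNA 1, the smallest possible). The small nuclear RNA (snRNA) genes took 0.0480% ± 0.0041, 0.0468% ± 0.0027 and 0.0406% ± 0.0032 in the same order, with siRNA 2 below control in all libraries (exact permutation p = 0.057). After Benjamini-Hochberg adjustment over the 24 class comparisons these p-values became 0.343, and all other class comparisons overlapped. The 8 RNAs held 85.4% of reads in the long noncoding class and 91.1% of reads in the miscellaneous RNA class, which contains Rn7sk and Terc.

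**Figure D5:**
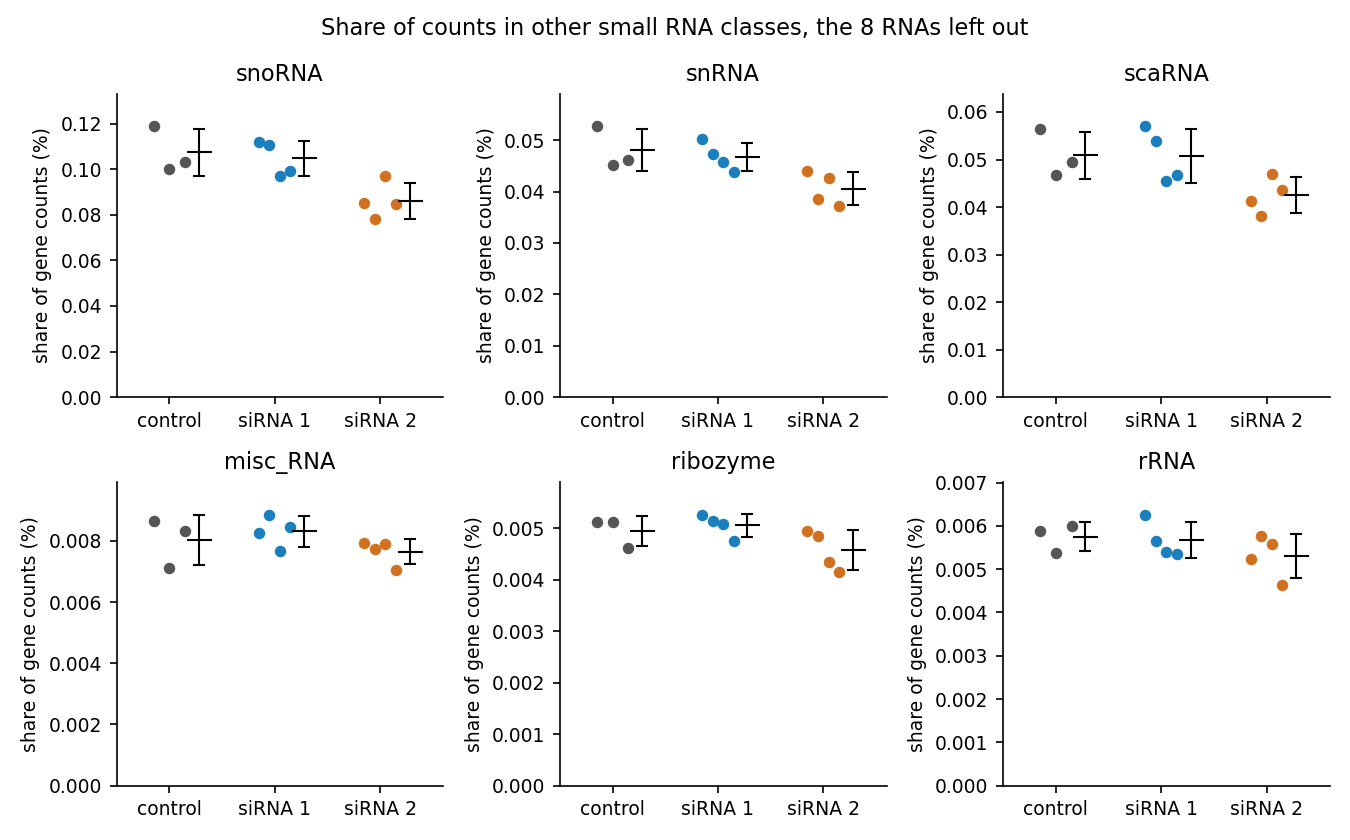
Share of gene counts (%) in 6 annotated classes of noncoding RNA after the 8 RNAs were left out; points are libraries and bars show the group mean ± SD (n = 3, 4 and 4). Libraries with siRNA 2 lie below control for snoRNA and snRNA, and overlap with control in the other 4 classes.

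The members did not vary together in a way that could be established over 11 libraries. Of 15 pairs compared on log2 CPM, the strongest was Gm26917 with Rn7sk (Pearson r = 0.73, permutation p = 0.0110, adjusted 0.165; Spearman rho = 0.50, permutation p = 0.122, adjusted 0.615), and r was 0.37 without the 2 libraries farthest from the median of Gm26917. For deviations from group means the r of that pair was 0.67. Gm26917 and Gm42418 had an r of 0.53 (permutation p = 0.0920, adjusted 0.345) and a rho of 0.47 (permutation p = 0.146, adjusted 0.615), with r = 0.48 without those 2 libraries. Their deviations gave r = 0.39. Gm26917 and Terc had an r of 0.67 (permutation p = 0.0224, adjusted 0.168) and a rho of 0.55 (permutation p = 0.0816, adjusted 0.615). That r was 0.26 without those 2 libraries and 0.53 for deviations. Malat1 and Terc had r = −0.04 over all libraries and 0.66 for deviations. The r of deviations were not tested. Malat1 and Neat1 had an r of −0.06 over all libraries (permutation p = 0.863, adjusted 0.977; rho = −0.23, permutation p = 0.501, adjusted 0.943; r = −0.13 without the 2 farthest) and 0.36 for deviations from group means. Of the 12053 genes with a mean log2 CPM of at least 2, those whose pattern was most like Neat1 were Arl4d (r = 0.97), Enox1 (r = 0.94) and Cipc (r = 0.94). For Malat1 they were Ankrd26 (0.94), Sox2ot (0.91) and Sec24a (0.90), and for Terc they were Prmt3 (0.94), Rnf32 (0.94) and Mir292 (0.91). Rn7sk was closest to Gm26316, Dph7 and Ptprz1 (0.89, 0.87 and 0.85), Gm26917 to Mir293, Snord17 and Yjefn3 (0.89, 0.88 and 0.88), and Gm42418 to Plk5, Itga10 and Gm42941 (0.91, 0.90 and 0.88). These are the highest of many values over the same 11 libraries, which share groups and depth, and are given as a description.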

How the data were processed

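Total RNA of E14 cells was depleted of ribosomal RNA and sequenced as strand-specific libraries. The authors deposited counts, a whole number of reads per Ensembl gene and library. By the study's methods, Cutadapt removed adaptors, STAR aligned to GRCm38 and Picard removed PCR duplicates, and the submitters' processing notes name featureCounts, while the closing lines of the files have the layout of HTSeq-count. In 10 of the 11 files (not that of siRNA 2 replicate 4) those lines list reads assigned to no annotated feature, 39.3% to 44.3% of those listed. They also list reads that aligned to several places, 5.79% to 6.32%. Both were left out. Symbols, exons and transcripts came from GENCODE M21, which held 54809 of the 54838 identifiers. Duplicate removal can lower the counts of RNAs with many reads per base.

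Genes with more than 1 CPM in at least 4 libraries (16073) were tested with the quasi-likelihood test of edgeR 4.0.16 (R 4.3.3), scaled by total counts, with the 3 groups in 1 model, and called at a Benjamini-Hochberg FDR of 0.05. Intervals of 95% are 1.96 SE to each side. Shares of counts were compared by exact two-sided permutation of the libraries (scipy 1.17.1), and correlations with 100000 permutations. The scripts were tested on simulated data. Pairs of replicates of a group differed by more than sampling noise. Alternatives were TMM factors, DESeq2 1.42.0, edgeR's exactTest, library sizes without Gm26917 and Gm42418, 2 other filters, a fit of only the groups compared, a replicate block, and each library left out in turn.

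The members, the lists and the alternatives were chosen with earlier results of these data known. Genes were named if they were members, Cmtr1, partner genes called with an siRNA against control (at most 4 per list), or the 3 genes most correlated with a member on log2 CPM (plus 0.01 CPM); all other named genes fall outside this rule and were chosen with their values known. The marker lists of neural cells and of endoderm and mesoderm summed to 92.0 to 116 and 14.0 to 23.0 CPM.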

Additional observations from a re-analysis of the deposited data

Results flagged for a closer look

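Neat1 differed between the siRNAs: its log2 fold change against control was −0.42 with siRNA 1 and −0.13 with siRNA 2, and the direct test of siRNA 2 against siRNA 1 gave a log2 difference of 0.29 (SE 0.046, FDR 2.95e-05 by edgeR), with all 4 siRNA 2 libraries above all 4 siRNA 1 libraries.

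A sample stood apart from the rest of its group in 2 of the 14 sets of 4 libraries examined (6 members and their sum in each siRNA group), where about 1 in 20 would do so by chance. Gm26917 took 6.34% of counts in siRNA 1 replicate 1, beside 5.50% to 5.63% in the other 3 libraries. Gm42418 took 0.878% of counts in siRNA 2 replicate 4, beside 1.06% to 1.09% in the other 3.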

How the results depend on the processing

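Over 342 recomputed log2 fold changes of the 6 tested members, 320 kept both direction and side of the threshold, 12 passed it anew and 0 lost a call. Neat1 kept its calls in all 19 alternatives, at −0.45 to −0.38 with siRNA 1 against control and 0.26 to 0.32 between the siRNAs. The 10 values that changed sign were of size 0.019 or less as reported: with siRNA 1, Gm26917 was −0.018 with TMM factors and −0.022 with DESeq2 (−0.046 to 0.025 with 1 library left out), Rn7sk was −0.00062 and −0.0043 (−0.0035 to 0.031), and Gm42418 was −0.084 to 0.036 with 1 library left out. Polr1b with siRNA 2 was −0.0095 with TMM factors and −0.014 with DESeq2. The cause of these shifts was not tested.

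Members called with siRNA 2 against control numbered 2 with TMM factors, 1 with DESeq2, 2 without the low-count filter and 0 to 2 with 1 library left out. Between the siRNAs they numbered 3 without the filter and 1 to 2 with 1 library left out, and 1 throughout with siRNA 1. Genes called were 958 with DESeq2 against 1562 for siRNA 2 and 740 against 1196 between the siRNAs. With 1 library left out they ranged from 355 (control replicate 2) to 852 for siRNA 1, 807 (control replicate 3) to 1658 for siRNA 2 and 724 (siRNA 1 replicate 2) to 1365 between the siRNAs. With fewer libraries the test has fewer degrees of freedom.

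Replicate numbers did not pair the libraries: the correlation of deviations from group means was −0.06 to 0.07 over 10 same-numbered pairs and averaged 0.010, against −0.0034 over 30 others. With the replicate block, partner genes called numbered 0 for siRNA 1 (Ubtf FDR 0.0887, Polr1b 0.0695, Polr3g 0.0680) and 3 for siRNA 2 (Polr3g 0.0565 and Pou2f1 0.0852 missed the threshold), and no call of a member changed. With DESeq2, 2 partner genes were called between the siRNAs. Without the reads of Gm26917 and Gm42418 in the library size, the share of all 8 RNAs was 7.92%, 7.92% and 7.34% in control, siRNA 1 and siRNA 2, because the total is smaller. With 1 library left out it was 7.30% to 7.50%, 7.14% to 7.50% and 6.73% to 7.03%. With TMM factors, 15 of the 18 genes most like a member stayed the same. Rmrp and Rpph1 overlap other annotated genes on their strand, and the part of this overlap in their low counts was not tested. Whether depth limits the other members was not tested.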

Other observations

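Within the classes of short RNA summed above, 2 abundant genes named after their values were seen fell with siRNA 2. Snora73b, a nucleolar RNA of the box H/ACA type, averaged 202 ± 18.3 CPM in control (SD, n = 3), 184 ± 13.7 CPM with siRNA 1 (SD, n = 4) and 141 ± 14.9 CPM with siRNA 2 (SD, n = 4). Its log2 fold change with siRNA 2 was −0.52 against control (SE 0.062, FDR 7.72e-08 by edgeR) and −0.39 against siRNA 1 (SE 0.059, FDR 1.44e-05). Scarna2, a Cajal body RNA, averaged 259 ± 21.5, 249 ± 30.1 and 205 ± 15.1 CPM in the same order, and its log2 fold change with siRNA 2 was −0.34 against control (SE 0.063, FDR 0.000261 by edgeR). With siRNA 1 against control they were at −0.14 (FDR 0.242 by edgeR) and −0.06 (FDR 0.722). These calls held with TMM factors, DESeq2 and the replicate block.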
